A study of Mus musculus with 16 samples.

Results

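A set of 10 genes of the p53 response was followed through 16 arrays: Bbc3, Bax, Perp, Trp53inp1, Phlda3, Sesn2, Triap1, Ccng1, Mdm2 and Trp53 itself. They were taken by symbol, through probe sets that the platform annotation gives to that gene alone, and the brightest probe set stood for the gene. Of the 10 listed genes, 8 had a probe set, out of 12393 genes measured in all, and 7 passed the filter on dim genes, out of 7619 tested. Bax and Trp53 had 0 probe sets listed under their symbols and were not analysed here. Perp was below the filter on every array and is given as values only.

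p53, the product of Trp53, is a transcription factor that is stabilised after DNA damage and other stress and then switches on genes with opposing effects on a cell. Bbc3 (PUMA), Bax and Perp promote apoptosis, and Trp53inp1 and Phlda3 favour it. Sesn2 and Triap1 help cells to survive stress, while Mdm2 and Ccng1 feed back on p53 itself, Mdm2 as the ubiquitin ligase that marks p53 for degradation. In neural stem cells p53 is known to restrain self-renewal and proliferation.

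RNA came from cultured adult mouse neural stem cells. Every culture, controls included, was Tlx(f/Z) by its label; Tlx is the orphan nuclear receptor Nr2e1, and an f in such a genotype usually marks an allele open to deletion by Cre. Tlx(f/Z;CreER) cultures also made CreER, a Cre whose fused estrogen receptor part keeps it inactive until 4-hydroxytamoxifen is given. The titles write this agent 4OH-TM, and it is called 4OHT here; the promoter that drives CreER is not given in the sources used here. Each genotype received 4OHT or vehicle and was collected at 36 h or 60 h, which made 8 groups of 2 arrays: CreER vehicle, CreER 4OHT, no Cre vehicle and no Cre 4OHT at each time. All groups held the f/Z alleles, so an active recombinase without them was not among the conditions. Both arrays of a group are biological replicates by the design text, which does not name separate animals, so the spread between them may be technical. The p-values rest on that spread as pooled over genes of similar signal, and not on the spread of each gene's own arrays.

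Values are linear MAS5 signals, the summary brightness of a probe set. The median signal of an array lay between 92.2 and 132.6, and precision is limited by there being 2 arrays a group. Nr2e1 had 0 probe sets listed, so the targeted gene was not checked here, while the Esr1 probe set read 279 to 444.3 on CreER arrays and 11.7 to 32.2 on arrays without Cre. Of 9 neural stem cell markers with a probe set, 7 passed the filter, among them Nes and Sox2, against 1 of 6 microglial, 1 of 6 endothelial or mural and 0 of 5 fibroblast markers. Of the markers of neural lineages, 2 of 6 neuronal (Syt1, Map2), 2 of 5 astrocyte (Aldoc, S100b) and 2 of 5 oligodendrocyte lineage markers (Olig2, Cspg4) passed. The summed signal of the neuronal markers was 973 to 1488 on CreER 4OHT arrays, 1449 to 1755 on CreER vehicle and 1558 to 2238 without Cre, and its part in the results was not tested. That of the astrocyte markers was 4002 to 4800.1, 4223 to 5414 and 3453 to 4241 in the same order. In cultures without Cre the actin control ratio, 5' over 3', was 0.548 to 0.666 at 36 h, below the 0.716 to 0.891 of all other arrays, and its part in comparisons of genotype or time was not tested beyond a fit with that ratio as a covariate. Bulk RNA cannot tell a change in the share of some cells from a change within each cell. A gene was called when its limma adjusted p was under 0.05, Benjamini-Hochberg over all 7619 genes, in 1 fit of all 16 arrays on the log2(signal + 16) scale. Changes are differences on that scale, with the standard error (SE), and understate the change of dim genes.

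In CreER cultures 6 of the 7 tested genes rose after 4OHT over both times, and 0 fell. The background for this count was 4%, the share of all tested genes that rose. The genes were chosen with earlier results of these data known, so the count is not an independent test. The median change of the 7 was 0.82 on the log2 scale, against −0.07 for all tested genes. At 36 h 4 of the 7 rose (background 1.12%) and at 60 h 7 of 7 rose (background 2.36%). In cultures without Cre, 0 of 7 passed with limma over both times (background in either direction 0.0656%), with 0 at an unadjusted p under 0.05, and their changes ran from −0.07 to 0.12. At 36 h (background 0.0394%) and at 60 h (background 0.171%) 0 of 7 passed as well, with 0 and 1 at an unadjusted p under 0.05.

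Bbc3, the BH3-only protein that binds the survival members of the Bcl-2 family, acts directly at mitochondria to start apoptosis. Its signal on the CreER vehicle arrays was 67.4 and 97.4 at 36 h and 109 and 85.7 at 60 h, against 215 and 176 at 36 h and 211 and 253 at 60 h after 4OHT. All 4 CreER 4OHT arrays thus lay above all 12 others, since cultures without Cre read 85.3 to 138 on vehicle and 88.3 to 169 on 4OHT. The mean rose from 89.9 ± 17.8 to 214 ± 31.2 (SD, n = 4 each), a change of 1.12 (SE 0.15, limma adjusted p = 4.51e-11). The change was 1.12 at 36 h (SE 0.21, limma adjusted p = 1.21e-04) and 1.13 at 60 h (SE 0.21, limma adjusted p = 1.98e-05); the difference between them was 0.01, with a 95% interval from −0.58 to 0.61. Bbc3 was also the 1 gene of the 7 with an unadjusted p under 0.05 without Cre, at 60 h, where vehicle read 85.3 and 109 and 4OHT 169 and 133, a difference of 0.56 (limma adjusted p = 0.713). At 36 h without Cre its difference was −0.33 (limma adjusted p = 0.834).

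Phlda3 encodes a small pleckstrin-homology protein that competes with the survival kinase Akt for membrane lipids. It read 400.1 and 593 on CreER vehicle at 36 h and 650.2 and 432 at 60 h, and 929.5 and 940.2 at 36 h and 966 and 1170.3 at 60 h on CreER 4OHT. The 4 treated arrays lay above the 4 vehicle arrays and also above the highest array without Cre, 911. Its mean went from 519 ± 122 to 1001 ± 114 (SD, n = 4 each), a change of 0.95 (SE 0.13, limma adjusted p = 2.94e-10), with 0.92 at 36 h and 0.98 at 60 h.

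Trp53inp1, a stress-induced nuclear protein that promotes p53 phosphorylation and also acts in autophagy, had its signal raised from 482 and 599 to 866 and 998 at 36 h. At 60 h it read 556 and 466 on vehicle and 1085 and 1630 on 4OHT, the second 4OHT array being the highest of the 16. The groups did not overlap at either time, and the mean rose from 526 ± 62.5 to 1145 ± 336 (SD, n = 4 each), a change of 1.07 (SE 0.13, limma adjusted p = 3.83e-13). The change was 0.77 at 36 h (limma adjusted p = 0.00414) and 1.36 at 60 h (limma adjusted p = 2.11e-10), but the difference between times, 0.58 (SE 0.26), did not pass (limma adjusted p = 0.907). Perp, a tetraspan membrane protein of apoptosis and of desmosomes, read 10.4 to 40.6 on all 16 arrays. Its means were 19.5 ± 6.94 on CreER vehicle and 21.4 ± 5.57 on CreER 4OHT (SD, n = 4 each), too dim for a test here.

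**Figure D1:**
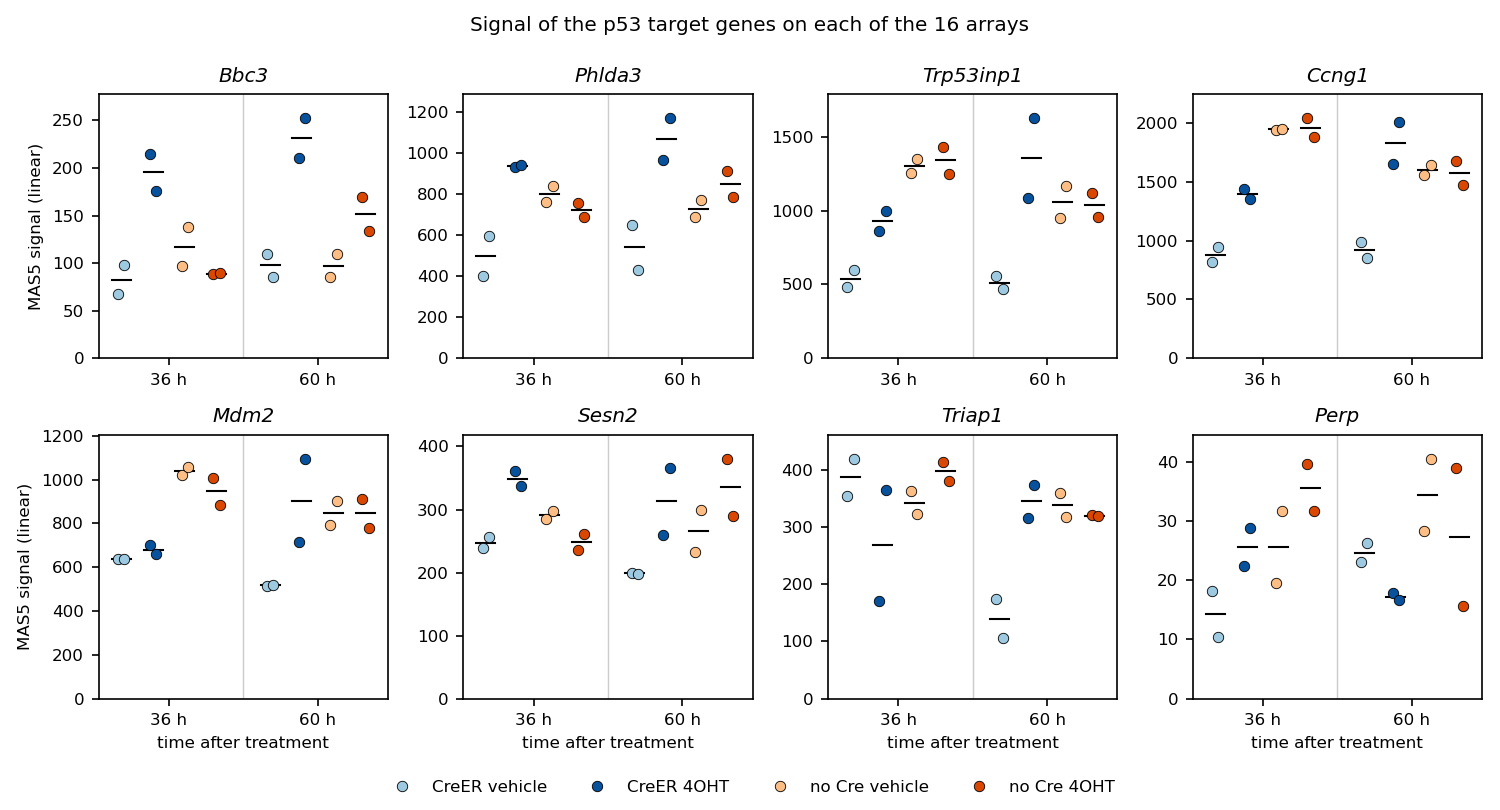
Linear MAS5 signal (vertical axes, from 0) of the 8 genes with a probe set on each of the 16 arrays, by time; each point is an array, colours give genotype and treatment, and the black line is the mean of 2 arrays. The CreER 4OHT arrays of Bbc3 (176 to 253) lie above all others, CreER vehicle is the low group for Trp53inp1 and Ccng1, and Perp stays at 10.4 to 40.6.

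Mdm2 and Ccng1 form the feedback arm: Mdm2 ubiquitinates p53, and cyclin G1, encoded by Ccng1, recruits a phosphatase that activates Mdm2. RefSeq promoter windows, from 250 bases before to 50 bases after the transcript start in build GRCm38.p6, were found for 8 of the 10 genes, with none for Trp53inp1 and Perp. They were searched on both strands for the decamer of the p53 response element, which is its own reverse complement, so a match counts on either strand. An exact decamer occurred in 2745 of 32851 windows of all genes (8.36%). Among the genes with signal values, it occurred in the windows of Ccng1 and Mdm2, and not in those of Bbc3, Phlda3, Sesn2 and Triap1. Bax and Trp53, without probe sets, had one as well. Pairs of decamers were searched with no spacer, up to 2 mismatches and the core C and G of each decamer matching. Such a pair occurred in 107 of 32851 windows (0.326%). In Ccng1 the exact decamer GGGCAAGCCT, 185 bases before the start, was part of a pair of abutting decamers, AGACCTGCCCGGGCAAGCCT, with 1 mismatch to the element; a pair with at most 1 mismatch stood in 22 of 32851 windows (0.067%). The 250 bases before the start of both feedback genes are shown 5′ to 3′ on the gene's strand, because they carry these matches; capitals mark the pair of decamers in Ccng1 (chr11:40755287-40755536, minus strand) and the single decamer in Mdm2 (chr10:117710759-117711008, minus strand), 186 bases before its start.
Ccng1: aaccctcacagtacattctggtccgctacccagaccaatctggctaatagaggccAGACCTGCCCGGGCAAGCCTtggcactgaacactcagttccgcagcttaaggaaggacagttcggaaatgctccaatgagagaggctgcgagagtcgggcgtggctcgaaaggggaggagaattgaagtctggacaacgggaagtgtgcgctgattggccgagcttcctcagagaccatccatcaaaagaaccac
Mdm2: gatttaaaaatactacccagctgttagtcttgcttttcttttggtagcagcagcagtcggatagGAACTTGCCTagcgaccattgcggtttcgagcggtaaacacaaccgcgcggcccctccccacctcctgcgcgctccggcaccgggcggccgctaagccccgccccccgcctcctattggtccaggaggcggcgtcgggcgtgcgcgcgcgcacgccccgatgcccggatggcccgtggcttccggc
A match describes the letters of a window and no binding was measured here. Bases outside the windows were not searched, so a window without a match does not show that the gene lacks an element.

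Ccng1 read 816 and 945 on CreER vehicle and 1440.4 and 1358 on CreER 4OHT at 36 h, and 990.3 and 854 against 1653 and 2013 at 60 h. The groups did not overlap at either time. The mean went from 902 ± 80.3 to 1616 ± 292 (SD, n = 4 each), a change of 0.82 (SE 0.13, limma adjusted p = 1.45e-08), with 0.66 at 36 h (limma adjusted p = 0.0158) and 0.98 at 60 h (limma adjusted p = 7.41e-06).

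Mdm2, whose window holds the single decamer, was called at 60 h and not at 36 h. It read 638 and 639.6 on CreER vehicle and 702 and 659.6 on CreER 4OHT at 36 h, a change of 0.09 (SE 0.19, limma adjusted p = 0.933). At 60 h vehicle read 514 and 519.7 and 4OHT 713 and 1096, a change of 0.76 (SE 0.19, limma adjusted p = 0.00247). The 60 h call was lost in 6 of 19 alternatives, among them without the second 4OHT array (0.45, limma adjusted p = 0.175) and by the other Mdm2 probe set (0.37, limma adjusted p = 0.255). The 4 treated arrays lay above the 4 vehicle arrays, and the change over both times was 0.42 (SE 0.13, limma adjusted p = 0.0178). That call rested on single arrays: without the second 4OHT array at 60 h the change was 0.27 (limma adjusted p = 0.18), and the adjusted p was 0.11 without the first and 0.057 without the second 4OHT array at 36 h and 0.0536 without the second vehicle array at 36 h. It was lost in 9 of 23 alternatives, among them the other Mdm2 probe set (0.31, limma adjusted p = 0.114). The responses at 60 h and 36 h differed by 0.67 (SE 0.27, limma adjusted p = 0.655), so a later response of Mdm2 was not shown.

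Sesn2 and Triap1 stand on the survival side. Sestrin 2, the Sesn2 product, dampens mTORC1 signalling under stress. Its gene read 239 and 256 on CreER vehicle and 361 and 338 on 4OHT at 36 h, and 199 and 198 against 260.1 and 366 at 60 h. The groups did not overlap at either time. The change over both times was 0.54 (SE 0.14, limma adjusted p = 0.00182); at 36 h alone, 0.47 did not pass (limma adjusted p = 0.209), and at 60 h 0.60 did (limma adjusted p = 0.0318), a call lost in 8 of 19 alternatives, among them without either vehicle array (limma adjusted p = 0.104 and 0.068) or the second 4OHT array (0.36, limma adjusted p = 0.295) at 60 h. Its other probe set gave a larger change over both times, 0.82.

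Triap1, a mitochondrial protein that hinders activation of the apoptosome, was the 1 gene of the 7 with a negative change at 36 h and a positive one at 60 h. At 36 h it read 354 and 419 on CreER vehicle and 171 and 364 on 4OHT, with the first 4OHT array far below the second and the groups overlapping, a change of −0.59 (SE 0.19, limma adjusted p = 0.0664) that hung on single arrays: it was −1.10 without the second 4OHT array (limma adjusted p = 0.00582) and −0.08 without the first (limma adjusted p = 0.996). At 60 h vehicle was the low group, at 174 and 105, against 315 and 373 on 4OHT, a change of 1.24 (SE 0.19, limma adjusted p = 3.34e-08). The responses at the times differed by 1.83 (SE 0.27, limma adjusted p = 8.97e-08), a call that 7 of 7619 genes made in this direction (background 0.0919%) and that the other 6 genes did not make. The call was lost with no filter on dim genes (limma adjusted p = 0.322) and when each gene's variance came from its own arrays alone. Most of that difference lay in the vehicle groups. CreER vehicle fell by 1.40 on the log2 scale from 36 h to 60 h (limma adjusted p = 1.56e-09), the 1 call among the 7 in that comparison (background 0.774%), while the 8 arrays without Cre stayed within 318 to 414. Over both times Triap1 changed by 0.33 and was not called (limma adjusted p = 0.0910); the value was 0.58 without the first CreER 4OHT array at 36 h (limma adjusted p = 0.00685) and 0.49 without the first CreER vehicle array at 60 h (limma adjusted p = 0.00969). It was 0.07 without the second CreER 4OHT array at 36 h (limma adjusted p = 0.861) and 0.17 without the second CreER vehicle array at 60 h (limma adjusted p = 0.449).

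At 36 h the 2 treated arrays lay above the 2 vehicle arrays for 6 of 7 genes in CreER cultures, where 17% of all tested genes did. Without Cre they lay above for 1 and below for 4 of 7 at 36 h, and above for 2 and below for 0 at 60 h. The share of all tested genes is not given for cultures without Cre, so these counts cannot be set against a background. At 36 h without Cre the median change was −0.14 for the 7 genes and −0.15 for all tested genes. In CreER cultures the treated arrays lay above for 7 of 7 at 60 h (background 7.49%), and at both times for 6 of 7 (background 4.74%). The calls at 36 h were fragile: 0 of 7 passed without the first CreER vehicle array at 36 h, 1 without the first CreER 4OHT array and 3 without the second, among them Triap1 as a fall. Over both times the count stayed between 5 and 7 whichever array was left out, and Trp53inp1, Phlda3 and Ccng1 kept their calls in each alternative run. Bbc3 kept its call in each alternative that tested it; a filter at the 60th percentile left it out.

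**Figure D2:**
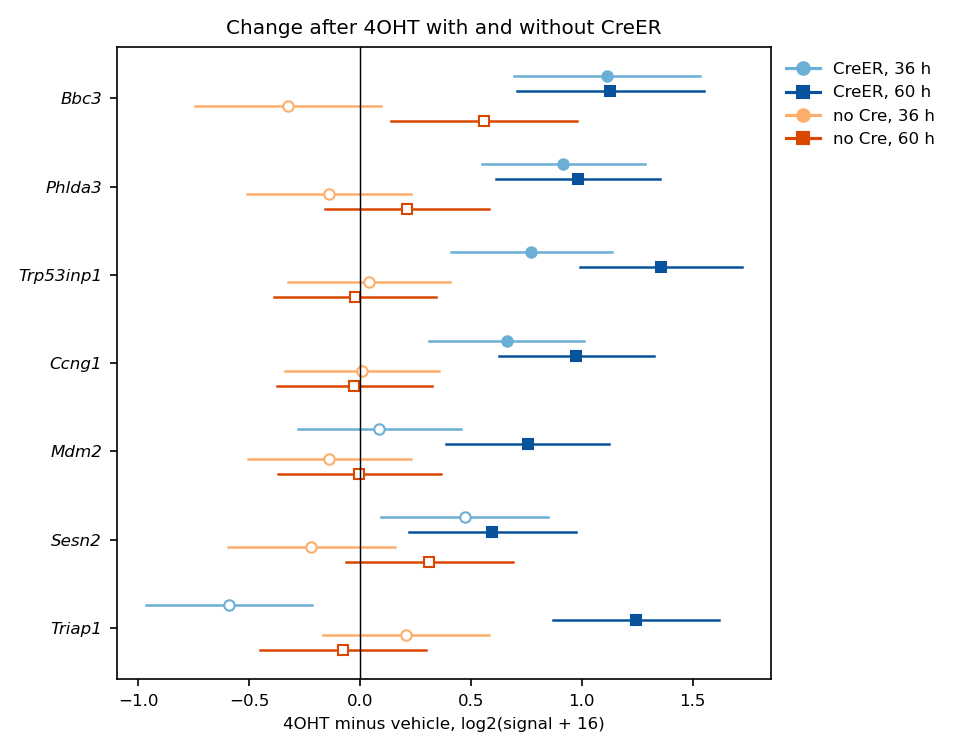
Change after 4OHT on the log2(signal + 16) scale (horizontal axis) for the 7 tested genes in CreER cultures (blue) and cultures without Cre (orange), at 36 h (circles) and 60 h (squares); bars are 95% intervals, and filled symbols have a limma adjusted p under 0.05. Filled symbols stand for 4 genes at 36 h and 7 at 60 h with CreER, and for 0 genes without Cre.

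Whether the response depended on CreER was tested as the difference between the response with and without it. Over both times 4 of 7 genes responded more with CreER (background 1.52%): Trp53inp1 by 1.06 (SE 0.19, limma adjusted p = 5.71e-06), Bbc3 by 1.01 (SE 0.21, limma adjusted p = 5.56e-04), Phlda3 by 0.91 (SE 0.19, limma adjusted p = 2.85e-04) and Ccng1 by 0.83 (SE 0.18, limma adjusted p = 6.22e-04). The same difference was 0.49 for Mdm2 (limma adjusted p = 0.186), 0.49 for Sesn2 (limma adjusted p = 0.214) and 0.26 for Triap1 (limma adjusted p = 0.713), none of which passed. The other probe set of Sesn2 gave a difference of 0.96 (SE 0.19), which passed in the fit of all probe sets (limma adjusted p = 0.0498). In that fit Trp53inp1 (limma adjusted p = 0.0276) and Ccng1 (limma adjusted p = 0.0257) passed as well. Bbc3 (limma adjusted p = 0.109) and Phlda3 (limma adjusted p = 0.0792) did not pass there. After median scaling or quantile normalization 6 of 7 passed. When each gene's variance came from its own arrays alone, an alternative chosen after seeing the data, 0 of the 7 and 0 of all tested genes passed. At 36 h Bbc3 and Phlda3 passed (background 0.906%), and at 60 h Trp53inp1, Triap1 and Ccng1 did (background 0.499%). For Bbc3 the difference was 1.44 at 36 h, where its signal without Cre was lower on 4OHT (88.3 and 89.6) than on vehicle (96.5 and 138). At 60 h the Bbc3 difference was 0.57 (SE 0.30) and did not pass (limma adjusted p = 0.518).

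The genes also differed between the genotypes in cultures that received no 4OHT. On vehicle, 5 of 7 were lower in CreER cultures than in cultures without Cre, against a background of 26.6% of all tested genes. The median difference of the 7 was −0.57, against −0.13 for all tested genes. Trp53inp1 was lowest in relation to cultures without Cre, at 526 ± 62.5 against 1182 ± 171 (SD, n = 4 each), a difference of −1.14 (limma adjusted p = 1.43e-16). Ccng1 stood at 902 ± 80.3 against 1775 ± 202 (−0.96, limma adjusted p = 5.92e-13) and Mdm2 at 578 ± 70.5 against 944 ± 121 (−0.69, limma adjusted p = 2.34e-06; SD, n = 4 each). Phlda3 was lower too, at 519 ± 122 against 764 ± 61.7 (SD, n = 4 each; −0.57, limma adjusted p = 1.49e-04). For these 4 genes no CreER vehicle array reached the lowest vehicle array without Cre, as for 18.1% of all tested genes. Triap1 was lower as well (−0.53, limma adjusted p = 5.77e-04), through its 60 h arrays, with the groups overlapping. Sesn2 (−0.30, limma adjusted p = 0.0677) and Bbc3 (−0.22, limma adjusted p = 0.273) did not pass. With the actin ratio as a covariate 2 of the 5 calls held, those of Trp53inp1 and Ccng1. Genotype and the lines or cultures it was carried in cannot be told apart here.

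On 4OHT the order of the genotypes was another one; this comparison was added after values were seen and shares its arrays with the response described. Bbc3 was higher with CreER by 0.79 (limma adjusted p = 2.19e-06) and Phlda3 by 0.34 (limma adjusted p = 0.0285), 2 of 7 against a background of 8.58%. For both, the 4 CreER arrays lay above the 4 arrays without Cre, as for 5.3% of all tested genes. In the fit of all probe sets Bbc3 passed (limma adjusted p = 0.00248) and Phlda3 did not (limma adjusted p = 0.0952). The other Sesn2 probe set passed there as higher with CreER (0.51, limma adjusted p = 0.0108). Trp53inp1 stood at 1145 ± 336 against 1192 ± 201 (SD, n = 4 each), a difference of −0.08 with a 95% interval from −0.34 to 0.17. For Ccng1 the interval ran from −0.38 to 0.11 and for Mdm2 from −0.46 to 0.06. Pooled over times, CreER vehicle had the lowest mean of the 4 conditions for each of the 7 tested genes. CreER 4OHT had the highest for Bbc3, Phlda3 and Sesn2. At 36 h the CreER 4OHT arrays of Trp53inp1, Ccng1 and Mdm2 still lay below those of cultures without Cre, with Ccng1 at 1399 ± 58.5 against 1961 ± 115.5 on 4OHT (SD, n = 2 each). At 60 h CreER 4OHT had the highest mean of the 4 groups for all 3 genes, with Ccng1 at 1833 ± 254 against 1576 ± 148 (SD, n = 2 each). The arrays of the genotypes overlapped for each of them. For Mdm2 the CreER 4OHT arrays read 713 and 1096, and the first lay below all arrays without Cre at 60 h, 779 to 913. By the other Mdm2 probe set CreER 4OHT was not highest, at 718 against 736 for no Cre vehicle. The genotypes on 4OHT were not tested at each time.

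**Figure D3:**
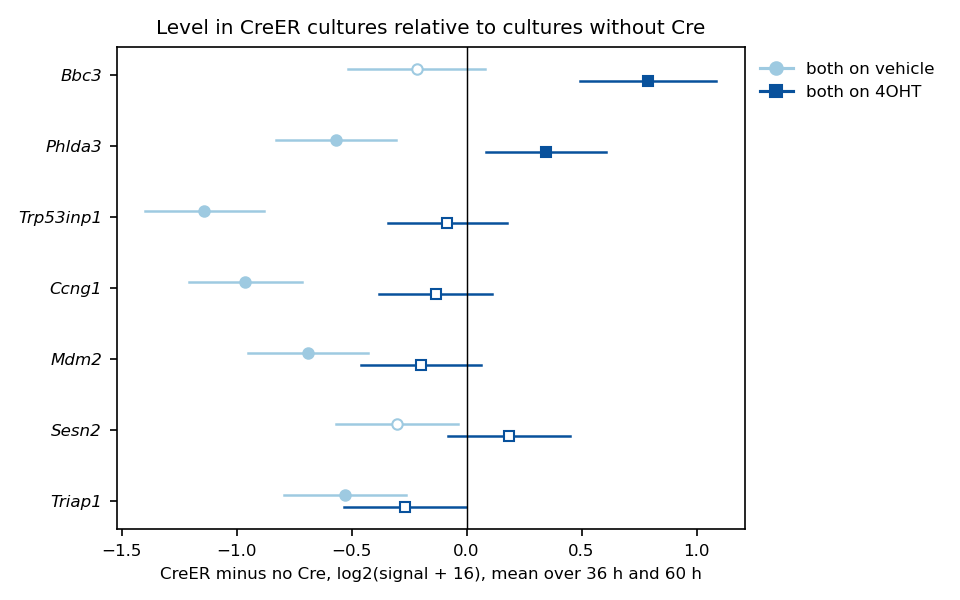
Level in CreER cultures minus cultures without Cre on the log2(signal + 16) scale (horizontal axis, mean over 36 h and 60 h) for the 7 tested genes, on vehicle (light circles) and on 4OHT (dark squares); bars are 95% intervals and filled symbols have a limma adjusted p under 0.05. On vehicle all 7 values lie below 0, from −1.14 for Trp53inp1 to −0.22 for Bbc3, and on 4OHT the values for Bbc3 (0.79) and Phlda3 (0.34) are the filled ones.

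Time in culture was compared over genotypes and treatments together. Over the 4 conditions 1 of 7 was called between 60 h and 36 h. Triap1 was lower at 60 h by 0.32 on the log2 scale (−0.32, limma adjusted p = 0.0114), where 8.16% of all tested genes were called lower. Its means at 36 h and 60 h were 386 and 139 on CreER vehicle, and 268 and 344 on CreER 4OHT (n = 2 each). Without Cre they were 342 and 339 on vehicle and 397 and 319 on 4OHT (n = 2 each). The mean over conditions thus joins moves in opposite directions. The Triap1 call was lost without the second array of CreER vehicle at 36 h or 60 h or of CreER 4OHT at 36 h. It was also lost without the first array of no Cre vehicle or no Cre 4OHT at 36 h. In vehicle cultures without Cre 0 of 7 passed with limma (background 0.407%), and 0 had an unadjusted p under 0.05. The differences of the other 6 over the 4 conditions ran from −0.09 for Mdm2 to 0.22 for Bbc3 (limma adjusted p = 0.164 for Bbc3).

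Several of the genes have more than 1 probe set, which reads another stretch of the transcript. The 12 probe sets of the tested genes all gave a positive change after 4OHT in CreER cultures over both times, from 0.31 to 1.12. At 36 h 11 were positive and that of Triap1 was negative, and at 60 h all 12 were positive. The second probe set of Trp53inp1 gave 1.03 over both times, and the others of Ccng1 gave 0.90 and 1.001, against 1.07 and 0.82 for those used. On vehicle all 12 were lower with CreER than without Cre.

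**Figure D4:**
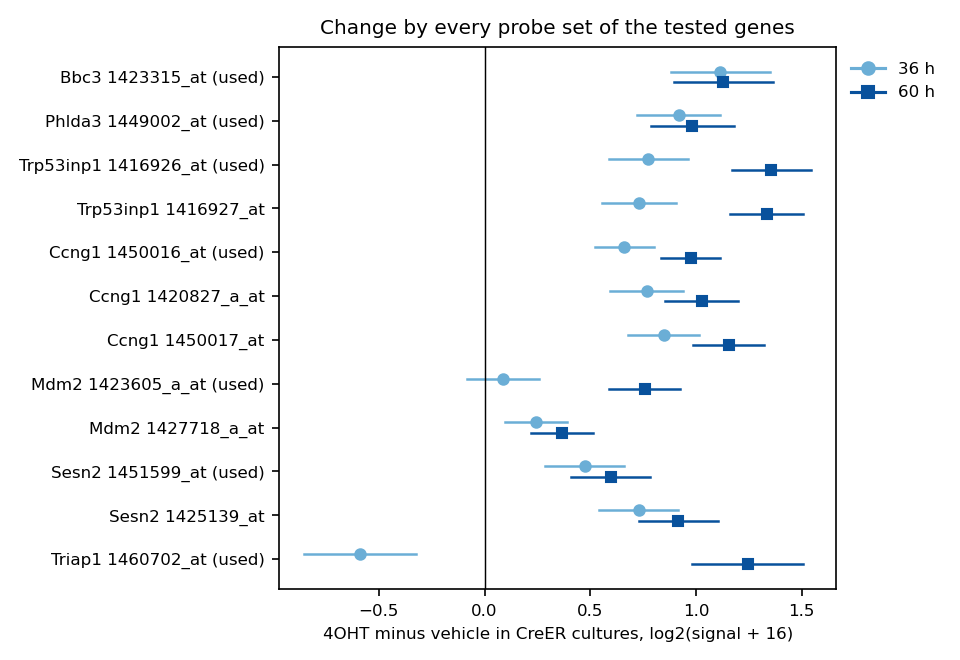
Change after 4OHT in CreER cultures on the log2(signal + 16) scale (horizontal axis) for each of the 12 probe sets of the tested genes, at 36 h (circles) and 60 h (squares), from a fit of all probe sets; bars are 1 SE on each side. All values lie above 0 except Triap1 at 36 h (−0.59), and the probe sets of Mdm2 differ at 60 h (0.76 and 0.37).

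Across the 8 group means the 7 genes did not follow a single course. Trp53inp1 and Ccng1 ran nearly in parallel (Pearson r = 0.994), and Mdm2 followed both (r = 0.929 and 0.928). Bbc3 went with Phlda3 (r = 0.864) and less with Mdm2 (r = 0.178, or 0.391 after quantile normalization) or Triap1 (r = −0.03, or 0.15 after quantile normalization). These are descriptions over 8 points that share arrays and genotype differences, so they carry no p. Outside the 10 genes, the gene whose group means were most like those of Phlda3 was Cdkn1a, the cell-cycle inhibitor p21 (r = 0.987). For Bbc3 it was Sparc, a secreted matrix protein (r = 0.974), for Trp53inp1 Pgpep1, a peptidase (r = 0.985), and for Ccng1 Dglucy, a D-glutamate cyclase (r = 0.988). For Mdm2 it was Nacc2 (r = 0.980) and for Sesn2 Mlc1, a membrane protein of astrocytes (r = 0.986).

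Other genes of the pathway were read from lists chosen by function. The lists, like the 10 genes, were chosen with earlier results of these data known. Of 40 other p53 targets, 35 had a probe set and 29 were tested; 9 rose after 4OHT in CreER cultures over both times (background 4%), 0 fell and 20 did not pass. Their median change was 0.22, against 0.82 for the 7 genes and −0.07 for all tested genes. By smallest p they were led by Cdkn1a, from 1540 ± 264 to 3015 ± 398 (SD, n = 4 each; 0.97, limma adjusted p = 2.17e-13), and by Ak1, adenylate kinase 1, from 358 ± 81.6 to 746 ± 109 (SD, n = 4 each; 1.05, limma adjusted p = 3.27e-12). Zmat3, an RNA-binding zinc finger protein, rose by 0.79 and Rprm, which arrests cells in G2, by 0.75. At 36 h 4 of the 29 rose (background 1.12%) and at 60 h 7 did (background 2.36%), while without Cre 0 passed with limma over both times and 0 had an unadjusted p under 0.05. The response was larger with than without CreER for 4 of the 29 (background 1.52%), namely Cdkn1a (0.93), Ak1 (0.95), Rprm (0.88) and Zmat3 (0.71). On vehicle 13 of the 29 were lower with CreER (background 26.6%) and 4 higher (background 7.97%), with Rprm (−1.43), Sesn3 (−0.99) and Ak1 (−0.83) among the lower and the stress gene Gadd45a (1.23) among the higher.

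The genes that act on p53 moved the other way where they moved. Of 20 listed regulators 15 were tested, and over both times 0 rose, 4 fell and 11 did not pass, where 8.36% of all tested genes fell; the median was −0.24. The 4 were the checkpoint kinases. Chek1 fell from 222 ± 48.2 to 94.7 ± 37.7 (SD, n = 4 each; −1.15, limma adjusted p = 1.13e-12), and Atm from 209 ± 9.997 to 131 ± 4.98 (SD, n = 4 each; −0.61, limma adjusted p = 5.96e-04). Atr (−0.50, limma adjusted p = 0.00813) and Chek2 (−0.41, limma adjusted p = 0.0308) fell with them. The kinases of this list are known to phosphorylate p53 after DNA damage. The difference from the response without Cre passed for Chek1 (−0.83, limma adjusted p = 0.0047) and for 0 of the other 14 (background 0.814%).

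The rest of the Bcl-2 family, to which Bbc3 belongs, did not share a direction. Of 17 listed genes 10 were tested; 1 rose (background 4%), 2 fell (background 8.36%) and 7 did not pass, with a median of 0.02. Bad, a BH3-only protein, went from 289 ± 52.7 to 465 ± 240.4 (SD, n = 4 each; 0.54, limma adjusted p = 0.00124), with a rise of 0.97 at 60 h (limma adjusted p = 3.61e-05). Its responses at 60 h and 36 h differed by 0.86, which did not pass (limma adjusted p = 0.276). Bcl2l11 (BIM), also a BH3-only protein, fell from 312 ± 66.5 to 228 ± 42.7 (SD, n = 4 each; −0.42, limma adjusted p = 0.0222) and Bnip3 by 0.49 on the log2 scale (limma adjusted p = 0.00404). The survival gene Bcl2l1 (BCL-XL) had a difference of 0.34 that did not pass (limma adjusted p = 0.0767). Against the response without Cre, Bcl2l11 alone of the 10 differed (−0.69, limma adjusted p = 0.0229; background 0.814%).

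**Figure D5:**
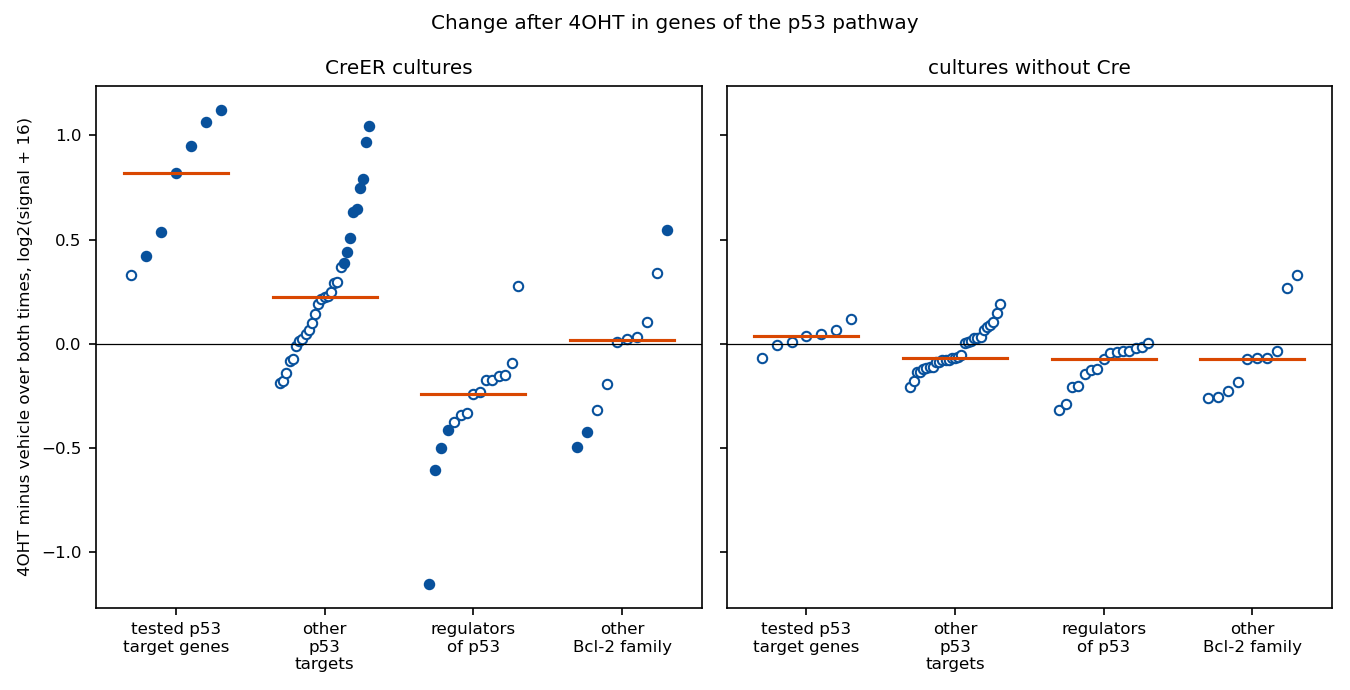
Change after 4OHT over both times on the log2(signal + 16) scale (vertical axis) for the 7 tested p53 target genes, 29 other p53 targets, 15 regulators of p53 and 10 other Bcl-2 family genes, in CreER cultures (left) and cultures without Cre (right); each point is a gene, filled where the limma adjusted p is under 0.05, and the orange line is the list's median. With CreER the medians are 0.82, 0.22, −0.24 and 0.02 in that order, and without Cre no point is filled.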

How the data were processed

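Per the labels' protocols, TRIzol was used for RNA and an ENZO transcript labelling kit for biotin. The authors deposited 1 intensity per probe set and array, which the submitters' processing notes credit to MAS5; version and scaling target are not given in the sources used here. The table keeps replicates apart, and its signals were used without rescaling.

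Of 22626 probe sets that are not controls, 20380 had 1 gene symbol, 691 several and 1555 none. For each of 12393 genes the brightest probe set was used. A gene was tested if its mean log2(signal + 16) was at least 6.07, the 40th percentile over probe sets (a signal of 51.1), which left 7619. limma 3.58.1 in R 4.3.3 fitted 8 group means to 16 arrays (8 residual degrees of freedom) with a variance trend, two-sided, at an adjusted p of 0.05. Prior degrees of freedom were infinite, so the spread of each gene was taken from genes of similar signal and not from its own arrays. The fit was tested on simulated data. Comparing the genotypes under 4OHT was added after values were seen.

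The genes and lists were chosen with earlier results of these data known. Named were all 10 genes, from each list up to 4 genes with the smallest p in a comparison, and for each gene called over both times in CreER cultures the gene with the most similar group means. Alternatives were other scalings, pseudocounts, filters, variance models, probe sets, an actin covariate, a replicate block and leaving out each array.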

Additional observations from a re-analysis of the deposited data

Results flagged for a closer look

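The response to 4OHT differed between cultures with and without CreER beyond the pooled spread for several of the genes. Over both times the difference (CreER response minus response without Cre, log2 scale) was 1.06 for Trp53inp1, 1.01 for Bbc3, 0.91 for Phlda3 and 0.83 for Ccng1, with limma adjusted p between 5.71e-06 and 6.22e-04. At 36 h it was 1.44 for Bbc3 (SE 0.30, limma adjusted p = 0.00114) and 1.06 for Phlda3 (SE 0.27, limma adjusted p = 0.0124). At 60 h it was 1.38 for Trp53inp1 (SE 0.26, limma adjusted p = 1.42e-04), 1.32 for Triap1 (SE 0.27, limma adjusted p = 6.90e-04) and 1.001 for Ccng1 (SE 0.25, limma adjusted p = 0.0134). The remaining genes did not pass at each of these times, among them Bbc3 at 60 h (0.57, limma adjusted p = 0.518). Triap1 was the 1 gene of the 7 whose CreER response differed between times, by 1.83 (SE 0.27, limma adjusted p = 8.97e-08). These values rest on 2 arrays in each of 4 or 8 groups.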

How the results depend on the processing

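No result changed direction in any alternative run. Over both times 4 to 7 of the 7 genes were called in CreER cultures (5 to 7 with 1 array left out), and 0 without Cre in every alternative. At 36 h (4 as reported) the count was 0 with no filter on dim genes, 1 with a replicate block and 0 with each gene's own variance, an alternative chosen after seeing the data; leaving out arrays gave 0 to 4. At 60 h (7) it was 3 with only the arrays compared and 2 with each gene's own variance, and 5 to 7 with 1 array left out. For the difference of responses over both times (4) it was 2 with no filter and 0 with own variance, 6 after median scaling and after quantile normalization with or without the trend, and 4 to 5 with 1 array left out. For the CreER response at 60 h minus 36 h (1) it was 4 after median scaling, 4 after quantile normalization, 2 after quantile normalization with no variance trend, and 0 with no filter or own variance; it was 1 whichever array was left out. On vehicle (5 lower with CreER) it was 2 with the actin ratio as covariate and 5 to 6 with 1 array left out. For 60 h against 36 h (1) it was 2 after median scaling, quantile normalization, and quantile normalization with no trend, and 0 with no filter, the replicate block, the actin covariate or own variance; with 1 array left out it was 0 to 1. The cause of these shifts was not tested.

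Replicate numbers did not pair the arrays: deviations of equal-numbered arrays correlated at 0.124 and −0.0856 in CreER cultures at 36 h and 60 h and at 0.311 and −0.0779 without Cre. With the replicate block Ccng1's difference of responses had a limma adjusted p of 0.0565.

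Settings other than leaving out arrays gave these totals over all the genes they tested, 7619 as reported and other numbers where the filter changed. For the CreER response to 4OHT over both times they called 383 to 2954 (942 as reported). At 36 h they called 0 to 1634 (199) and at 60 h 53 to 2268 (533). For the difference of responses they called 0 to 1469 (178) and for the difference between times 0 to 169 (15). Between genotypes on vehicle they called 1286 to 4210 (2631), between times 35 to 3475 (897) and without Cre 0 to 62 (5). With 1 array left out the totals were 520 to 1256 for the CreER response over both times, 31 to 78 at 36 h, 321 to 701 at 60 h, 90 to 227 for the difference of responses, 6 to 29 for the difference between times and 497 to 1482 between times. With 2 arrays a group, changes of the size of Mdm2's at 36 h were not detectable.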
